A study of Mus musculus with 4 samples.

Results

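The complement genes described here were C1qa, C1qb and C1qc, which encode the chains of C1q, C3 and C4b, which encode central components, Cfb and Cfp, which encode factor B and properdin of the alternative pathway, and Serping1, which encodes the C1 inhibitor. They were taken as all probe sets of the array whose only gene symbol in the platform annotation was one of these 8 names. That gave 6 of the 18193 genes named in this way, read by 9 of the 45037 probe sets. C1qb had 3, Cfp had 2 and the others 1 each. C3 was not analysed here. The probe set for C4b also carries the symbol of its near-identical copy C4a, so it was not used.

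Values came from 4 Affymetrix Mouse430_2 arrays, 2 for zymosan-treated cells and 2 for unstimulated cells. The zymosan group was bone marrow-derived macrophages of MyD88 -/- mice given 100 ug/ml zymosan for 120 min. The unstimulated group was macrophages of the same MyD88 -/- genotype without any stimulus (0 min). No array was of cells kept for 120 min without zymosan. An effect of time or handling therefore cannot be told apart from one of zymosan. All the cells had grown out of marrow over 6 days with recombinant human M-CSF, a growth factor of macrophages, and all lacked MyD88, the adaptor of most Toll-like receptors, so no value here shows what MyD88 contributes. Both zymosan arrays have the tag ZYM in their titles, whereas unstimulated 1 has LPS and unstimulated 2 has PIC. The titles thus set the unstimulated arrays apart from each other and from the zymosan arrays, although all other labels call both unstimulated, and what these tags add to any difference cannot be told apart from zymosan. The labels give no strain, sex or age, and do not say whether separate mice or cultures lie behind the arrays of a group. The p-values therefore measure only how far these arrays lie apart, and that spread may be technical.

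Complement is a cascade of plasma proteins that tags particles for uptake and calls in leukocytes. C1q starts the classical pathway when it binds antibody or a damaged surface, and it is made mainly by macrophages rather than by the liver. Factor B and properdin drive the alternative pathway, for which zymosan, a particle of yeast cell wall, is a standard activator in serum. These arrays measured the cells' own transcripts, not complement proteins or their cleavage.

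The scan of unstimulated 2 came 16 days after that of unstimulated 1. The zymosan arrays shared a scan day, 153 days after unstimulated 1, and had another operator. Since no day held both groups, an effect of the day cannot be told apart from one of zymosan in what follows. Over the 27571 probe sets that passed a filter on low values, the differences within a pair had an SD of 0.20 for the zymosan arrays and 0.29 for the unstimulated arrays (log2). Myd88 read 8.37 and 8.40 on the zymosan arrays, against 8.72 and 8.78 on the unstimulated arrays, and since every array is labelled deficient these values check no label. All 9 macrophage markers with a probe set of their own, such as Csf1r and Adgre1, were detected above the filter's level. Granulocyte markers, by contrast, were higher with zymosan, as given further on.

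Transcripts of C1qa and C1qb were lower after zymosan. C1qa fell 3.41-fold and C1qb 1.76-fold, 1.57-fold and 1.52-fold at its 3 probe sets, while C1qc did not pass the test (limma adjusted p = 0.0699). With the scan day as a random block the call of C1qa was left and the 3 of C1qb were lost (limma adjusted p = 0.0858, 0.0809 and 0.133 in the same order). Because no day held both groups, that block cannot remove a day difference between them. Its correlation within a day, 0.54, was set from the spreads of the pairs. No complement member rose. Of the 9 probe sets, 8 were tested, of which 4 fell, 0 rose and 4 did not pass the test (limma, adjusted p under 0.05 over all 27571 probe sets). For comparison, 7.45% of all tested probe sets were called lower and 8.48% higher. Of the 4 calls, 3 were of 1 gene, C1qb. With each gene read at its probe set of highest mean, 2 of 5 member genes were called lower, beside 6.73% of all genes. In this fit no member had a positive difference at an unadjusted p under 0.05 either, and limma with a trended, robust prior also called 0 higher. The median difference of the tested member probe sets was -0.63, beside -0.01 for all tested probe sets (zymosan minus unstimulated, log2).

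The A chain had the largest difference among the members. C1qa read 10.01 and 9.91 on the zymosan arrays, against 11.26 and 12.20 on the unstimulated arrays (RMA log2 values). Both zymosan arrays lay below both unstimulated arrays, by at least 1.25, but the unstimulated arrays were themselves 0.94 apart. A gap that wide within the unstimulated pair was seen at 1.02% of tested probe sets. The means were 9.96 ± 0.07 in zymosan cells and 11.73 ± 0.66 in unstimulated cells (SD, n = 2 each). The difference was -1.77 (SE 0.30, limma adjusted p = 0.0175).

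**Figure D1:**
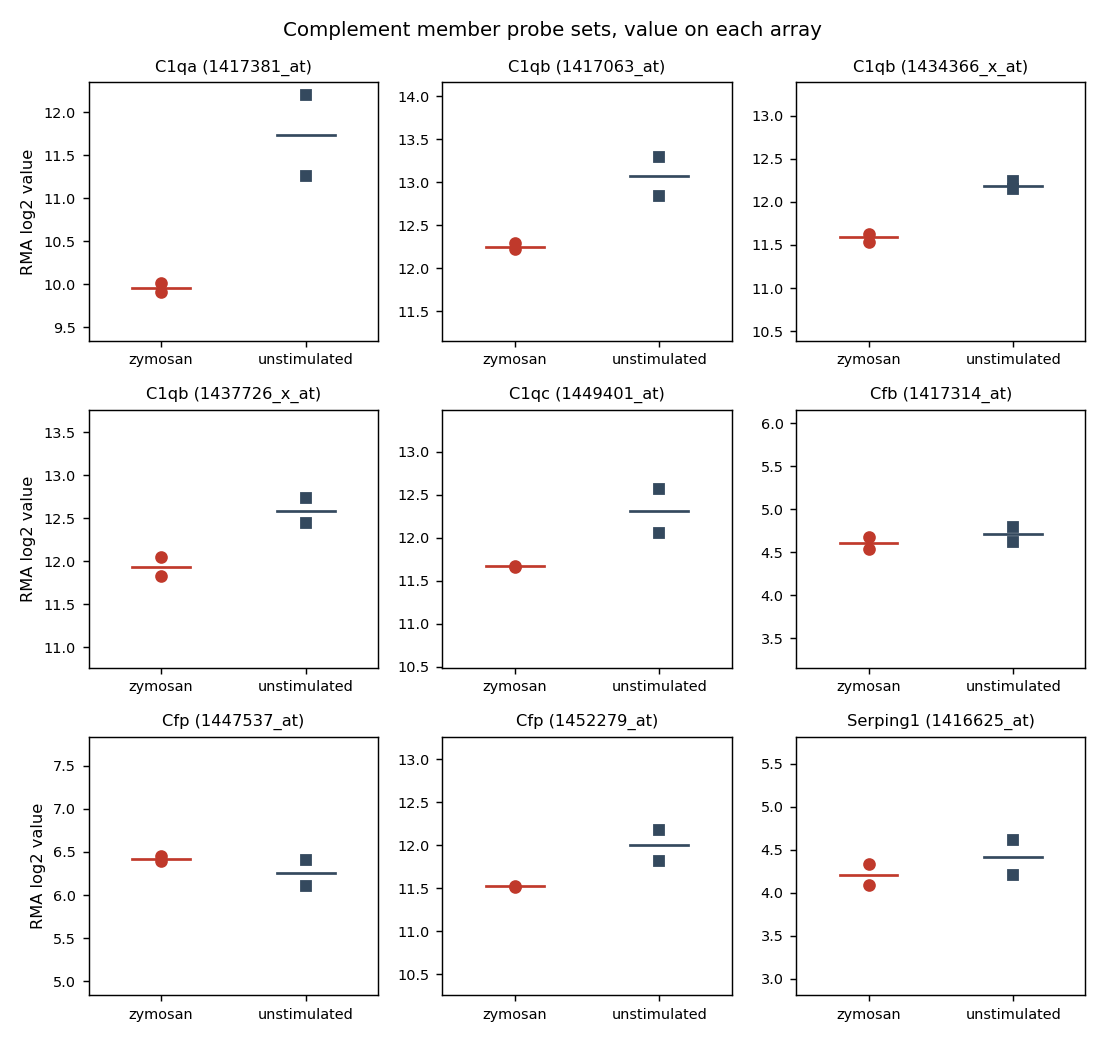
RMA log2 value of each member probe set on each array, with zymosan arrays as red circles and unstimulated arrays as dark squares and the mean of each group as a line; every panel spans 3 log2 units. At C1qa the zymosan arrays sit at 10.01 and 9.91, against 11.26 and 12.20 on the unstimulated arrays, while the groups overlap at Cfb, Serping1 and 1 probe set of Cfp.

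The B chain was read by 3 probe sets. Probe set 1417063_at of C1qb read 12.22 and 12.29 on the zymosan arrays, against 12.84 and 13.29 on the unstimulated arrays, a difference of -0.82 (SE 0.17, limma adjusted p = 0.0308). Probe set 1434366_x_at read 11.54 and 11.63 with zymosan, against 12.15 and 12.24 without. Its difference of -0.61 (SE 0.11, limma adjusted p = 0.0205) came with the tightest unstimulated pair of the C1q probe sets, 0.09 apart. Probe set 1437726_x_at read 11.83 and 12.05 with zymosan, against 12.45 and 12.74 without, a difference of -0.65 (SE 0.15, limma adjusted p = 0.0399). The groups did not overlap at any of the 3. The suffix _x marks probe sets in which some probes may also match other transcripts, and the probe sets of 1 gene are not replicates of each other.

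The C chain did not pass the test in the fit reported. C1qc read 11.66 and 11.67 on the zymosan arrays, against 12.06 and 12.57 on the unstimulated arrays. The groups did not overlap, and the difference was -0.65 (SE 0.18, 95% interval -1.10 to -0.19, limma adjusted p = 0.0699). The interval lies below 0 because it is not adjusted for the number of probe sets, whereas the p is. In all, the zymosan arrays lay below both unstimulated arrays at the 5 C1q probe sets and at 1 of Cfp, 6 of the 9, and 30.2% of all tested probe sets showed that order. In such bulk samples, fewer cells making C1q and less C1q RNA per cell cannot be told apart.

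C1qa, C1qc and C1qb are neighbours on chromosome 4, with no other protein-coding gene between them in the RefSeq annotation of GRCm38.p6, and their products assemble into a single protein. The plot of values by array shows the 5 C1q probe sets placed the same way on the arrays, with unstimulated 2 above unstimulated 1 at all 5 and both zymosan arrays below. Of these 5, 3 read C1qb. Of all 9 member probe sets, 7 were higher on unstimulated 2, and the share over all probe sets was not computed. Over all genes the median of unstimulated 1 minus unstimulated 2 was 0.04. The size of the C1qa difference was not tested against those of C1qb and C1qc.

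No promoter was available for C1qa. The promoters of C1qb and C1qc are shown because these genes lie side by side and had differences of one sign. Each runs from 250 bases before to 50 bases after a transcription start, from RefSeq on GRCm38.p6, minus strand, written on the gene's own strand. C1qb is at chr4:136886151-136886450 and C1qc at chr4:136892865-136893164. Capitals mark matches on either strand to a PU.1-like ETS core (GAGGAA) and the NF-kB consensus. PU.1 is a transcription factor of the macrophage lineage.
C1qb: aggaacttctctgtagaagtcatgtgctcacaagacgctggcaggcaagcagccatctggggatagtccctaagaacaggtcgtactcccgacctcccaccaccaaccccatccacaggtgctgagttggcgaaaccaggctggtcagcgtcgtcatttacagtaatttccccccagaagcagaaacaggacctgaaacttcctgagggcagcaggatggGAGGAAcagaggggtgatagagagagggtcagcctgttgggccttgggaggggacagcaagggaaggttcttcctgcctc
C1qc: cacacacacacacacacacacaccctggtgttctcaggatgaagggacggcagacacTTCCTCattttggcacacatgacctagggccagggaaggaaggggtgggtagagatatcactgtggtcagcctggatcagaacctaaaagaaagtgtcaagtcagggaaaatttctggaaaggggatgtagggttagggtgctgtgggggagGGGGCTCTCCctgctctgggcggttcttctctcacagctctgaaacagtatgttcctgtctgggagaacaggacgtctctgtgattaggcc

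The ETS core was found at -30 to -25 of C1qb and, on the opposite strand, at -193 to -188 of C1qc. The NF-kB consensus was found at -41 to -32 of C1qc alone. No match to these overlaps another. Of 32851 promoters in the table, 28.3% hold the ETS core and 8.46% the NF-kB consensus. The consensus of the interferon regulatory factor element, held by 0.35%, is in neither window. Both consensus patterns replaced looser ones after the windows had been searched with those. The looser NF-kB pattern, GGGA and CC with any 4 bases between them, is held by 20.7% of promoters. It matched C1qb at -191 to -182 and, overlapping on the opposite strand, at -190 to -181, as well as C1qc at -40 to -31, so the absence of an NF-kB match from C1qb depends on the pattern. The looser interferon pattern, a pair of GAAA with any 2 bases between them, is held by 3.44% and was in neither window. These are matches of letters in windows of 300 bases and not sites known to be bound.

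Properdin stabilizes the alternative pathway convertase, so it promotes complement activity. Its gene gave unlike readings at its probe sets. At 1452279_at, Cfp read 11.53 and 11.51 on the zymosan arrays, against 11.81 and 12.18 on the unstimulated arrays. The groups did not overlap there, but the difference of -0.47 did not pass the test (SE 0.15, 95% interval -0.85 to -0.10, limma adjusted p = 0.0901). At 1447537_at, Cfp read 6.39 and 6.45 with zymosan, against 6.41 and 6.10 without, and the groups overlapped. The difference there was 0.16 (SE 0.14, 95% interval -0.18 to 0.51, limma adjusted p = 0.48).

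Factor B, the protease of the alternative pathway convertase, is encoded by Cfb, next to C2 on chromosome 17 in the RefSeq annotation. Cfb read 4.54 and 4.68 on the zymosan arrays, against 4.80 and 4.62 on the unstimulated arrays. The groups overlapped, and the difference was -0.10 (SE 0.12, 95% interval -0.41 to 0.20, limma adjusted p = 0.63). All 4 values lay close above the filter's level, the 40th percentile of each array (4.36 to 4.39), and RMA gives a value to absent transcripts too, so whether Cfb was expressed cannot be told from them.

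C1 inhibitor, the Serping1 product, blocks the proteases attached to C1q and to the lectin pathway's recognition molecules. Serping1 read 4.33 and 4.09 on the zymosan arrays, against 4.21 and 4.62 on the unstimulated arrays. The groups overlapped and a single array, unstimulated 2, was above the filter's level, so Serping1 was not tested and no fold is given.

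**Figure D2:**
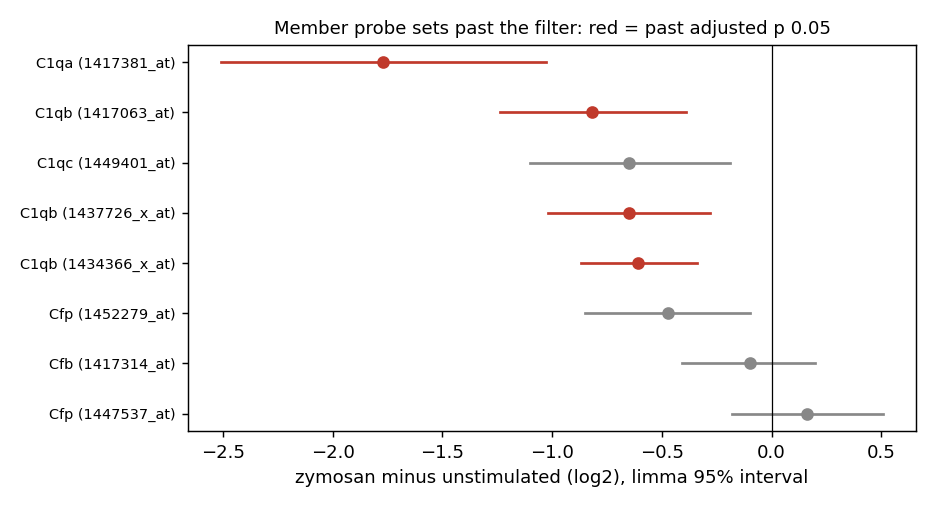
Difference of each tested member probe set, zymosan minus unstimulated on the log2 scale, as points with limma's 95% interval before adjustment; red marks those past the threshold. C1qa lies furthest left at -1.77, the 3 probe sets of C1qb lie between -0.82 and -0.61, and the intervals of Cfb and of 1447537_at of Cfp span 0.

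Other fits changed the number of calls, among the members and over all tested probe sets. Limma with a trended, robust prior called 5 member probe sets lower, C1qc among them (limma adjusted p = 0.0448). It called 2275 of all tested probe sets lower. With the scan day as a random block, C1qa had a limma adjusted p of 0.0464, the 1 call of 4 that was left. That fit called 647 of all tested probe sets lower, against 2054 in the fit reported. No member was called when limma's treat asked for a fold above 1.5, where 1 had an unadjusted p under 0.05. Treat called 197 of all tested probe sets lower. Fits without 1 array leave a single array in a group, so only their differences are given here. Without zymosan replicate 1 or zymosan replicate 2, C1qa differed by -1.82 and -1.72. Without unstimulated replicate 1, C1qa differed by -2.24, C1qc by -0.90, and Cfp by -0.66 at 1452279_at and 0.32 at 1447537_at. Without unstimulated replicate 2, these differences were -1.30, -0.39, -0.29 and 0.01 in the same order.

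The wider complement system was described from a list of genes grouped by role. Of these, 44 had a probe set of their own, 29 passed the filter and 14 were below its level on every array at all their probe sets. Each gene was read at its probe set of highest mean, and p-values were adjusted over 13222 genes. Of the 29, 6 fell, 0 rose and 23 did not pass the test, with a median difference of -0.08 beside 0.00 for all genes. Over all genes, 6.73% were called lower and 10.1% higher. At an unadjusted p under 0.05, limma had 1 pathway gene higher, C1qbp.

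Of 11 receptors tested, 3 that bind complement fragments fell and 8 did not pass. Itgam encodes the alpha chain of complement receptor 3, which takes up particles coated with iC3b. It read 8.70 and 8.64 on the zymosan arrays, against 10.25 and 10.41 on the unstimulated arrays, with a difference of -1.66 (SE 0.11, limma adjusted p = 0.00103). C5ar1, the receptor of the chemoattractant fragment C5a, read 10.12 and 10.20 with zymosan, against 11.12 and 11.33 without. It fell 2.10-fold (limma adjusted p = 0.0047), and its other probe set fell by 1.79 on the log2 scale. Itgax, the alpha chain of complement receptor 4, read 6.17 and 6.19 with zymosan, against 7.17 and 7.04 without (1.90-fold lower, limma adjusted p = 0.00479). At each of these both zymosan arrays lay below both unstimulated arrays, an order that 30.2% of all tested probe sets showed. Itgb2, the beta chain that both integrins share, differed by -0.20 (limma adjusted p = 0.219).

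**Figure D3:**
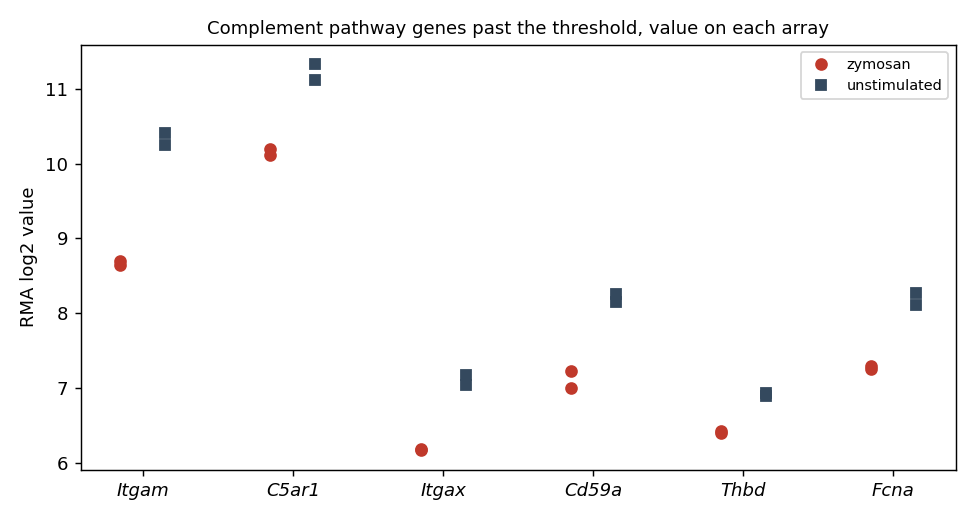
RMA log2 value on each array of the 6 complement pathway genes past the threshold, with zymosan arrays as red circles left of the unstimulated arrays as dark squares; levels are not comparable between genes. Both zymosan arrays lie below both unstimulated arrays for each gene, with Itgam at 8.70 and 8.64 against 10.25 and 10.41. The genes were picked by their difference on these same arrays, so this order is no separate support. It was seen at 30.2% of all tested probe sets.

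Other receptors gave mixed readings. C1qbp, a mitochondrial protein first named for binding the heads of C1q, differed by 0.38 at its probe set of highest mean (limma adjusted p = 0.0783), while its other probe set, 1448274_at, rose by 0.51 (limma adjusted p = 0.0291). Cd93, once described as a C1q receptor, differed by 0.30 at its probe set of highest mean (limma adjusted p = 0.206), while 2 of its other 4 fell, 1 by 1.30 and 1 at least 1.20-fold, to below the filter's level. Lrp1, an endocytic receptor, differed by -0.29 (limma adjusted p = 0.205) and rose by 0.94 at another probe set. The 3 probe sets of C3ar1, the receptor of the fragment C3a, differed by -0.34, 0.50 and -0.09 and none passed the test. C3ar1 and Itgb2 were named after their values were seen.

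Of the 5 membrane regulators tested, 2 fell. Cd59a, which blocks assembly of the membrane attack complex on the cell's own surface, read 7.23 and 7.0 on the zymosan arrays, against 8.26 and 8.15 on the unstimulated arrays. It fell 2.13-fold (limma adjusted p = 0.00497), and its other probe set fell by 1.04. Thbd, or thrombomodulin, which acts in coagulation and restrains complement, read 6.43 and 6.40 with zymosan, against 6.93 and 6.89 without (1.41-fold lower, limma adjusted p = 0.0218). Cd46 (-0.13), Cr1l (0.05) and Susd4 (-0.05) did not pass. Cr1l encodes Crry, the broad regulator of C3 and C4 on mouse cells. Both zymosan arrays lay below both unstimulated arrays for Cd59a and Thbd, as at 30.2% of all tested probe sets.

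In the lectin pathway, 1 of 7 genes fell. Fcna, the gene of ficolin A, a recognition molecule that macrophages make, read 7.25 and 7.30 on the zymosan arrays, against 8.11 and 8.27 on the unstimulated arrays (1.89-fold lower, limma adjusted p = 0.00538). Both zymosan arrays lay below both unstimulated arrays, as at 30.2% of all tested probe sets. Masp1 (-0.26), Colec11 (-0.37) and Colec12 (0.13) did not pass the test. None of the 2 classical, 2 terminal and 2 soluble regulator genes tested passed. Their differences were -0.05 for C1ra, -0.08 for C2, -0.07 for C6, 0.15 for C8g, -0.12 for Clu and 0.02 for Vtn. Over the 4 arrays C1ra read 4.62 to 4.74, C8g 4.26 to 4.7 and Vtn 4.28 to 4.83, close to the filter's level. Whether C1ra, C8g and Vtn were expressed cannot be told from such values. Among genes below the filter's level on every array were Hc, which encodes C5, C9, Cfi, Cd55 and Mbl2.

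The pathway calls also shrank when a zymosan array was left out. Cd59a and Itgam were called lower without zymosan replicate 1 and Itgam alone without zymosan replicate 2, although 6 had an unadjusted p under 0.05 each time. With the day as a random block, 5 of the 6 were called, without Thbd. By treat with a fold of 1.5, Itgam alone was called.

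Other gene groups moved on the same arrays. Of 9 macrophage markers, 5 fell and 4 did not pass, with a median of -0.40, and their summed linear level was 51300 and 53100 on the zymosan arrays, against 57000 and 59400 on the unstimulated arrays. Of 11 tested markers of granulocytes and their precursors, 9 rose, with a median of 1.65 and a summed level of 5150 and 5360 with zymosan, against 1200 and 1270 without. Of the 12 that had a probe set, only Cxcr2 was below the filter's level on every array. Fibroblast markers, of which 1 of 5 fell, summed to 145 and 154 with zymosan, against 174 and 178 without, and Col1a1, Col3a1 and Lum were below the level on every array. Among the lists of other cell types, 1 of 3 B cell markers fell, 1 of 4 dendritic cell markers rose, and the 1 T and NK cell marker tested differed by -0.19 without passing. The part of these cell types in the complement differences was not tested.

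Of 27 interferon-induced genes, 24 fell and 1 rose, with a median of -1.55, and 21 of 22 NF-kB genes rose, with a median of 1.33. Within the unstimulated pair the interferon-induced genes had a median of 0.53 higher on unstimulated 1, whereas C1qa, C1qb and C1qc were each higher on unstimulated 2. Without zymosan replicate 1 or zymosan replicate 2, the interferon-induced genes had a median of -1.68 and -1.49, and the NF-kB genes 1.32 and 1.37. In those fits the macrophage markers had a median of -0.41 and -0.40, and the granulocyte markers 1.83 and 1.60. The fit that blocked on scan day called 20 interferon-induced genes and 4 macrophage markers lower, and 18 NF-kB genes and 8 granulocyte markers higher.

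**Figure D4:**
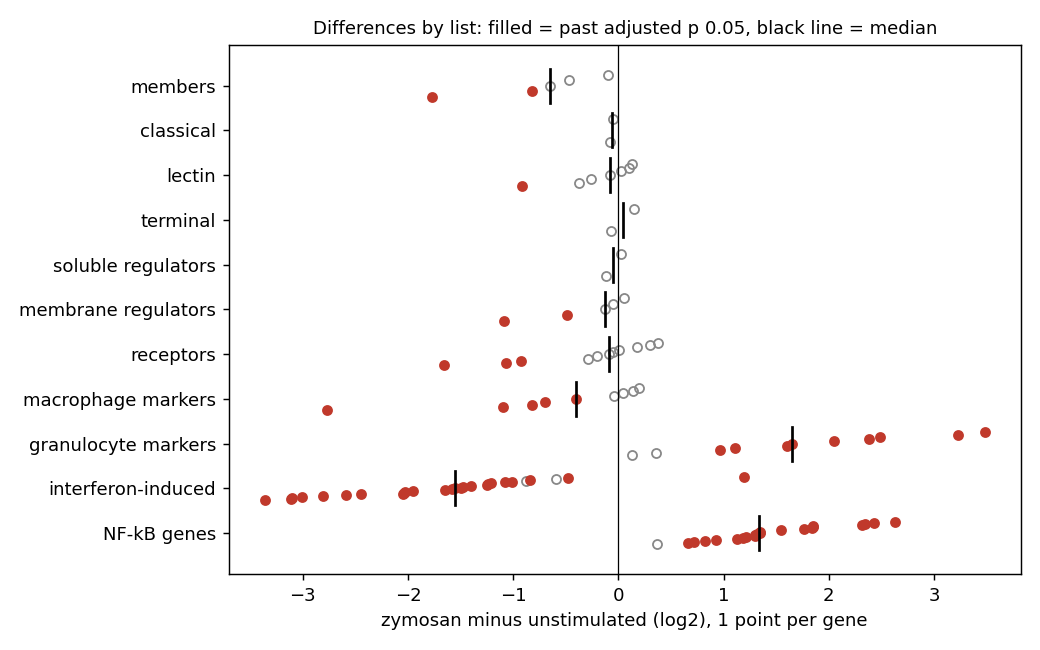
Difference of each tested gene, zymosan minus unstimulated on the log2 scale, at its probe set of highest mean, by list; filled red points passed the threshold and the black line is the median of the list. The members lie below 0, with C1qa at -1.77, most pathway genes lie near 0, the interferon-induced genes have a median of -1.55 and the granulocyte markers 1.65.

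C1qa, as the member with a call of at least 2-fold, was set against all genes by the Euclidean distance between values centred on each gene's mean over the 4 arrays. The nearest genes were Aif1 (distance 0.133), which encodes the macrophage calcium-binding protein Iba1, Sdc4 (0.172), a cell surface proteoglycan, and Btbd11 (0.194). On the zymosan arrays Btbd11 read 3.61 and 3.64, below the filter's level there (4.36), so its fall ended among low values. Aif1 read 7.67 and 7.68 on the zymosan arrays, against 8.85 and 9.84 on the unstimulated arrays, with the same wide unstimulated pair as C1qa. The distances rest on 4 arrays and describe these arrays alone.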

How the data were processed

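The series' value table holds log2 values, which the authors made with RMA, as the submitters' processing notes give it. This method removes background, gives the arrays one distribution and sums up the probes of each probe set, and it reports a number for absent transcripts too. Neither its version nor which arrays were normalized together is stated. Array medians lay between 4.92 and 4.94, so the values were used as deposited. The instrument settings files, deposited as text with no expression values, gave the scan days.

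Besides 64 controls there were 45037 probe sets, of which 34945 had 1 gene symbol, 932 several and 9160 none. Those at or above the 40th percentile of their array on at least 2 arrays were kept. Differences are zymosan minus unstimulated and were tested 2-sided with lmFit and eBayes in limma 3.58.1 (R 4.3.3). Benjamini-Hochberg adjustment ran over the 27571 kept probe sets, or over 13222 genes for the pathway and marker lists, with a threshold of 0.05. SE is the moderated one and SD is taken over a group's 2 arrays. The number of arrays limits the precision, and an exact permutation test of 2 against 2 reaches no 2-sided p under 0.333. The fit was tested on simulated data.

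All members were named, with pathway genes past the threshold by at least 2-fold, up to 4 more of smallest p per role, Myd88 and the 3 genes nearest to C1qa. The members and lists were chosen with earlier results of these data known. The array's genome build is not stated, so probe sets have no coordinates. A further promoter motif was searched and is not reported here.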

Additional observations from a re-analysis of the deposited data

How the results depend on the processing

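The member and pathway calls were recomputed under other filters, repeated quantile normalization, and a trended and robust prior. They were also recomputed with the scan day as a random block, with a minimum fold, and without each array in turn. The filters, the prior, the day block and the minimum fold leave each difference as it was, so no sign could change there. The fits without 1 array leave a single array in a group. Of 79 member differences so obtained, 59 kept their direction and their side of the threshold, 17 kept their direction but no longer passed, 3 passed only in the alternative and 0 changed sign. Of 308 pathway differences, 15 no longer passed, 5 passed only in the alternative and no call changed sign. The number of member probe sets called lower was 1 with the day as a random block, 0 with treat at a fold of 1.5, and 0 to 6 when each array was left out, against 4 in the fit reported. The number of pathway genes called lower was 1 with treat and 1 to 7 with an array left out, and the number higher was 1 with the trended prior, 1 with the mean of a gene's kept probe sets (C1qbp both times) and 0 to 1 with an array left out. Cd93 was the gene called higher without unstimulated replicate 2. Without a filter, probe set 1437726_x_at of C1qb no longer passed (adjusted p = 0.0506). The cause of these changes was not tested. Since duplicateCorrelation gave no estimate for 3 days and 4 arrays, the correlation within a day was set, after seeing the data, from the spreads of the pairs (0.54). No paired analysis was possible because the labels give the groups no shared replicate numbers. With 2 arrays a group and RMA values alone, signal over background could not be judged for Cfb, Serping1, C1ra, C8g and Vtn.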
